A study of Mus musculus with 12 samples.

Results

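Fetal mouse kidney at E17.5 was set against kidney at E15.5 (E for embryonic day), with 1 array for each stage. These are 2 of the 12 one-colour Agilent arrays of a study of kidney development and of organoids made from embryonic stem cells, in which neighbouring stages were compared to find genes that go up with age. Both samples were total RNA of whole kidney without ureter from wild type ICR mice, and the labels give neither the number nor the sex of the embryos. Fresh ICR wild type kidneys of the same kind at E11.5, E13.5 and birth (P0), with 1 array each, are used below as further stages, and replicate organoid arrays serve only as a yardstick of spread. The members are the genes well above background, by the flag of the scanner software, on at least 1 of the arrays. They were 18482 of 24484 genes with a symbol: 17414 were above background on both arrays, 469 on the E17.5 array alone and 599 on the E15.5 array alone. A level below is a gene's signal divided by the 75th percentile of all signals on that array, and a difference is the log2 level at E17.5 minus that at E15.5. No test is possible with 1 array for each stage, so a gene is called only by a difference past 2-fold, and no difference can be compared with the spread between kidneys of the same age.

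The mouse kidney grows by repeated branching of the ureteric bud and by conversion of progenitor cells around its tips into new nephrons. Nephrons formed early lie deep in the organ and mature while new ones are still being added beneath the capsule, so a late fetal kidney holds progenitors, partly formed nephrons and working tubules together. The proximal tubule reabsorbs most of the filtrate with a large set of transporters and is also a site of glucose and vitamin D metabolism, while the loop of Henle, distal tubule and collecting duct adjust salt, acid and water. In whole tissue, fewer cells of a type and less RNA per cell cannot be told apart, and this holds for every difference below.

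Kidney at E17.5 had more RNA of working tubules than at E15.5, in most listed genes past 2-fold, and slightly less RNA of progenitors and of cell division, where few or no listed genes were past 2-fold. Past 2-fold, 1024 genes were higher at E17.5, which is 5.54% of those measured, and 432 were lower, which is 2.34%, so that 70.3% of the calls were higher. With the normexp background correction, which pulls dim signals together, 387 were higher and 47 lower, and 89.2% of the calls were higher. By any size, 42.1% of the genes were higher and 57.9% lower, with a median difference of -0.07 and an SD of 0.68 across genes. Differences past 4-fold were seen for 325 genes that were higher and 136 that were lower, and differences past 16-fold for 45 that were higher and 23 that were lower. Replicate organoid arrays of one slide differed past 2-fold in either direction in 2.81% to 4.04% of their genes, against 7.88% between E17.5 and E15.5 kidney. The threshold cut a dense range, since 23 genes lay within 0.01 log2 units inside it and 25 just outside.

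The genes on the higher side were brighter than those on the lower side. Genes higher past 2-fold had a median level of 0.35 on their brighter array, against 0.0816 for those lower past 2-fold and 1.29 for all genes measured. Of the genes higher past 2-fold, 307 were not well above background at E15.5, and 194 of these were past 2-fold by their lower bound. Of those lower past 2-fold, 252 were not well above background at E17.5, and 99 were past 2-fold by their bound. With normexp the differences named below for Nlrp3, Sh3rf2, Col4a3, Cyp2j5, Ces1f, Hmx2, Tbx18, Myh11, Hbb-bh1, Uty, Ehhadh, Lcn2 and Klf9 are within 2-fold. Where a gene with a difference past 2-fold had several measured probes, all had the same sign for 147 of 160 higher genes and for 42 of 50 lower ones.

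The P0 and E13.5 arrays take no part in this comparison, and the same measure between them gives a second reading of each gene. The X-inactivation transcript Xist was well above background at E13.5 and E15.5 but not at E17.5 and P0. Both comparisons thus share this sex-linked difference, and its part in them was not tested. At P0 2979 genes (16.5%) were higher past 2-fold than at E13.5 and 2511 (13.9%) were lower. A gene entered if well above background on at least 1 of these arrays. One dim at E13.5 thus entered only through P0, which favours a higher sign. With both arrays required above background, 2007 genes were higher past 2-fold and 2183 lower. The shares below include genes dim on 1 array, so no support is taken from them. Among the genes higher past 2-fold at E17.5 that were measured there, 774 of 847 (91.4%) were higher at P0 than at E13.5, where 40.9% of all genes were. Past 2-fold, 714 of them (84.3%) were higher at P0, against 15.8% of all genes. Among the genes lower past 2-fold at E17.5, 176 of 279 (63.1%) were lower at P0 than at E13.5, close to the 59.1% of all genes, although 124 (44.4%) were lower past 2-fold, against 13.6% of all. Restricted to genes at or above the 75th percentile on at least 1 of the E17.5 and E15.5 arrays, 97.2% of 357 higher genes were higher at P0 and 74.0% of 50 lower genes were lower at P0, where 66.4% of all genes that bright were lower. Across 17710 genes the differences had a Pearson correlation of 0.67 and a Spearman correlation of 0.65, which is a description of genes on arrays of one slide and not of independent replicates. By stage, 401 of the 1024 higher genes increased at all 4 steps from E11.5 to P0, 645 had their highest level at P0 and 343 at E17.5, where the counts for all 18482 genes were 1881, 4561 and 1767. Of the 432 lower genes, 43 decreased at all 4 steps and 196 had their highest level at E15.5, where the counts for all genes were 1889 and 1305. The step from E15.5 to E17.5 is one of the 4, so the choice of these genes favours such courses, and nothing is read from the counts.

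**Figure D1:**
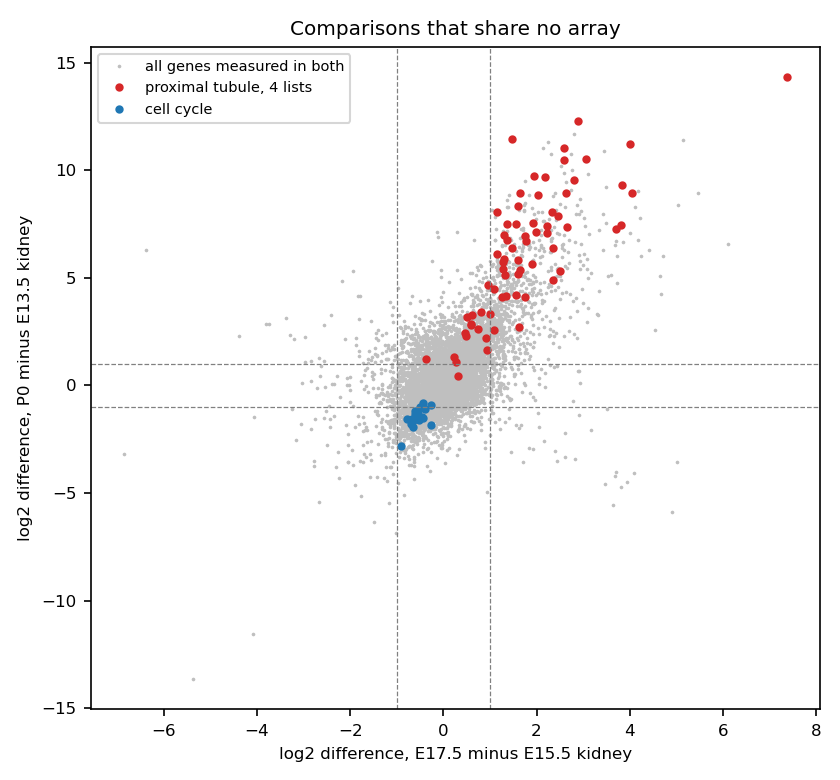
Each point is a gene, with its log2 difference between E17.5 and E15.5 kidney on the x axis and between P0 and E13.5 kidney on the y axis, 1 array per stage, and dashed lines at 2-fold. Red points, the 68 proximal tubule genes, were all higher at P0 than at E13.5, where some were not well above background. Of the red points 52 were past 2-fold higher at E17.5, while blue points, the 25 cell cycle genes, were all lower on both axes. Of all genes, 57.9% were lower on the x axis and 59.1% on the y axis.

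Genes of the proximal tubule were higher at E17.5 almost without exception. Of 70 genes listed for it by function, 69 were on the array and 68 were measured, and 52 of the 68 were higher past 2-fold at E17.5 while none was lower past 2-fold. Their median difference was 1.60, against -0.07 for all genes measured. All 68 were higher at P0 than at E13.5, with a median difference of 6.25. At E13.5, however, 14 of 27 transporters, 15 of 17 brush border and endocytosis genes and 4 of 6 regulators were well above background. So were 13 of the 19 metabolic genes on the array. The others entered only through P0, which favours a higher sign, and the size of their difference rests on a signal not well above background. Among transporters 25 of 27 were higher past 2-fold, with a median of 1.66, which compares with a median of at most 0.47 in size between replicate organoid arrays of one slide. Slc17a3, a carrier of urate and other organic anions, was at 0.00588, 0.0136, 0.32, 5.31 and 6.76 from E11.5 to P0, in order of age, and was 16.6-fold higher at E17.5 than at E15.5. It was not well above background at E11.5 and E13.5, and it was measured from E15.5 on. Slc17a1, a phosphate carrier of the same family, had levels of 15.2 at E17.5 and 2.04 at E15.5, a difference of 2.90. Slc3a1, the heavy subunit of the cystine and basic amino acid transporter, stood at 6.59 at E17.5 and 0.941 at E15.5, a 7.00-fold gain, and reached 15.1 at P0. The transporters that missed 2-fold were Slc7a8 (0.80), an amino acid exchanger, and Slc16a9 (0.50), a member of the monocarboxylate carrier family.

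Transporters of the main filtered solutes moved with them. The sodium-glucose cotransporter Slc5a2 had a level of 6.30 at E17.5 and 1.15 at E15.5, a difference of 2.45. The sodium-phosphate cotransporter Slc34a1 was at 29.5 at E17.5 and 7.69 at E15.5, 3.83-fold higher, having been at 0.0703 at E13.5. Slc22a6, the organic anion transporter that takes up drugs from blood, was 4.68-fold higher, with 21.4 at E17.5 and 4.56 at E15.5. For all of these the E17.5 level lay between that of E15.5 and that of P0.

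Metabolic genes of the same cells had the largest median of the 43 lists, 2.34, with 17 of 18 measured genes higher past 2-fold and none lower. Miox, the kidney enzyme that breaks down inositol, was at 0.0957, 0.0792, 2.24, 36.1 and 191 at the 5 stages in order of age, a gain of 16.1-fold from E15.5. Cyp24a1, which inactivates vitamin D, had levels of 0.776 at E17.5 and 0.0597 at E15.5 and was 13.01-fold higher, and Cyp27b1, which activates vitamin D, was 3.73-fold higher, at 0.242 at E17.5 and 0.0649 at E15.5. Both vitamin D enzymes, with opposite actions on the hormone, were thus past 2-fold in the same direction with the scaling used here. Cyp27b1 was at low levels on both arrays, where normexp pulls signals together, and its difference with normexp is not given. With normexp 16 of the 18 metabolic genes were higher past 2-fold. The gluconeogenic enzymes Fbp1, G6pc and Pck1 were 8.34-fold, 6.18-fold and 4.52-fold higher at E17.5. Fbp1 reached 74.5 at E17.5 and had been at 8.93 at E15.5. G6pc, which releases free glucose, stood at 0.715 at E17.5 and 0.116 at E15.5, and then at 8.07 at P0.

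Of the brush border and endocytosis genes 9 of 17 were higher past 2-fold, with none lower past 2-fold and a median of 1.16. The peptidase Dpep1 was apart from the rest, at 2.60 at E17.5 and 0.184 at E15.5, a 14.1-fold difference. The protocadherin Cdhr5, which links microvilli, was 3.95-fold higher and the glutathione peptidase Ggt1 3.14-fold. Lrp2 (megalin), the receptor for filtered proteins, was at 0.951, 0.707, 9.99, 27.5 and 58.6 from E11.5 to P0, 2.76-fold higher at E17.5 than at E15.5. Its other measured probe gave 1.62 where the chosen probe gave 1.46. Mep1b, a brush border metalloprotease, had levels of 17.8 at E17.5 and 6.45 at E15.5.

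Of the transcription factors listed as regulators in this segment, most were within 2-fold. Of 6 regulators measured, 1 was higher past 2-fold. The median difference was 0.41, the same size as the 0.41 reached between replicate organoid arrays of one slide. That gene was Nr1h4, the bile acid receptor FXR, at 1.30 at E17.5 and 0.39 at E15.5 (3.34-fold). Hnf4a was at 0.026, 4.78, 24.5, 37.4 and 46.5 at the 5 stages, which is 1.53-fold higher at E17.5 than at E15.5, and its largest step came before E13.5.

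Promoters of these genes are shown because HNF1 and HNF4 factors are known to bind such sequences in the proximal tubule. Each is the 250 bases before the start of the gene in the RefSeq table (mouse build GRCm38.p6), 5′ to 3′ on the strand of the gene. Capitals mark GTTAAT, the outer part of an HNF1 site, or CAAAGT, the core of an HNF4 site, on either strand. Miox (chr15:89334223-89334472, plus strand) and Nr1h4 (chr10:89506659-89506908, minus strand) hold an HNF1 match, and Slc3a1 (chr17:85028097-85028346, plus strand) holds an HNF4 match that extends to the longer CAAAGTCCA.
Miox: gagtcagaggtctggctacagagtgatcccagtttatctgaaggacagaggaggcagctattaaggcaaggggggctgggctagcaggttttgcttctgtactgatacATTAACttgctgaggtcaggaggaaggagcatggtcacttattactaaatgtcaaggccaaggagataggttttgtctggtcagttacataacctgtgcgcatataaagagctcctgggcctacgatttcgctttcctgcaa
Nr1h4: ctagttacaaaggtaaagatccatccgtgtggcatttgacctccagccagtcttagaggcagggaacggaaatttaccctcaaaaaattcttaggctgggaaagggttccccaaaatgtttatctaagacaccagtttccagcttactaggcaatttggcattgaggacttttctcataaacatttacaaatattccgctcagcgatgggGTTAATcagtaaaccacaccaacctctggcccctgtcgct
Slc3a1: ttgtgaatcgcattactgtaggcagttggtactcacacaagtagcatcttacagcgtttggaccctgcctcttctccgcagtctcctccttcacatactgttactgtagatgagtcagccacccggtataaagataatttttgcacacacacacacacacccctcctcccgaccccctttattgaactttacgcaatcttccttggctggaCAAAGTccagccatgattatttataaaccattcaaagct
Among 55 proximal tubule genes with a promoter in the table, 18.2% held GTTAAT, against 6.52% of the promoters of all 27025 genes. CAAAGT was found in 21.8% of them and in 12.5% of all promoters. CAAAGTCCA was in only 2 of the 55 (3.64%), 1 of them Slc3a1, and in 0.381% of all. The longer HNF1 form GTTAATNAT was also in only 2 of the 55 (3.64%), and in 0.781% of all. A match describes these letters and is not evidence of binding, and most proximal tubule promoters held neither short motif in this window.

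**Figure D2:**
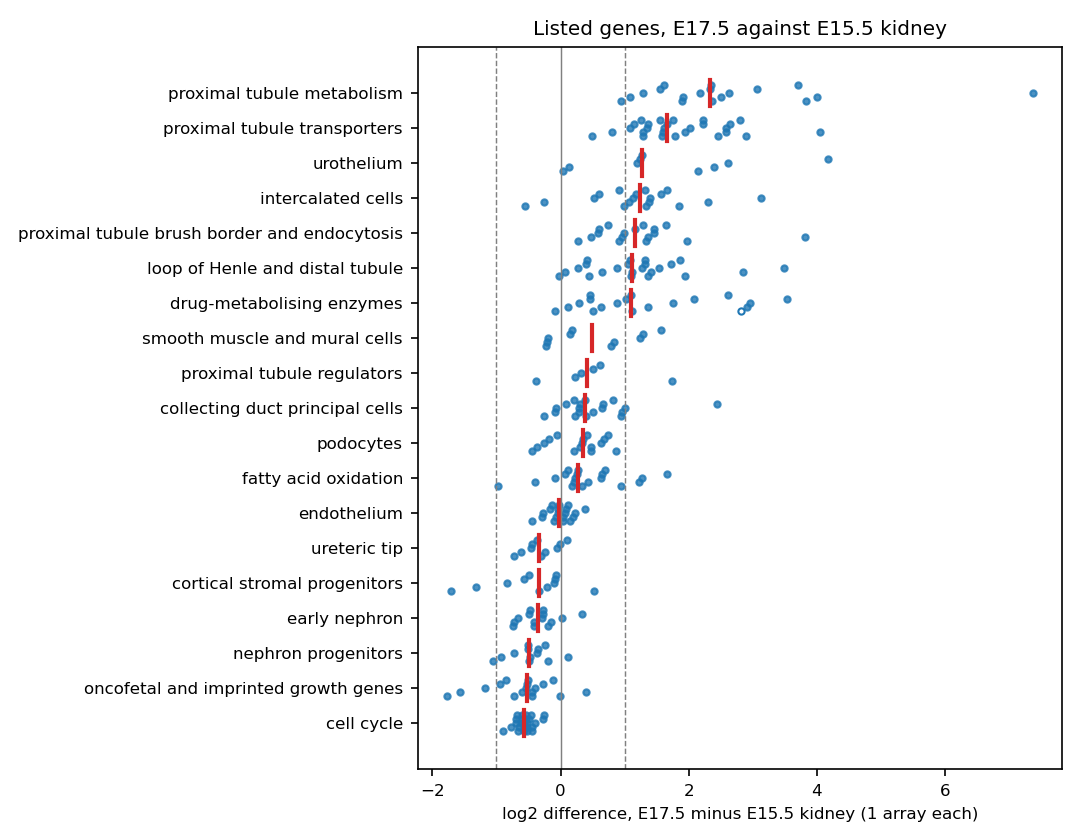
Each point is a listed gene and the x axis is its log2 difference between E17.5 and E15.5 kidney, 1 array each; open points were above background on 1 array only, red bars are list medians and dashed lines mark 2-fold. Proximal tubule metabolism sits furthest to the right with a median of 2.34, and cell cycle genes all lie left of 0 with a median of -0.57.

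Enzymes that process drugs and foreign compounds were also higher, with 11 of 19 past 2-fold (7 with normexp), none lower past 2-fold and a median of 1.11. Cyp2e1, a cytochrome P450 of liver and kidney, was 11.6-fold higher, at 0.928 at E17.5 and 0.0799 at E15.5. Gsta2, a glutathione transferase, was at 38.5 at E17.5 and 5.09 at E15.5 (7.56-fold). Cyp2j5 was 7.75-fold higher. Ces1f, a carboxylesterase, was not well above background at E15.5 and was at least 3.98-fold higher at E17.5. Across all measured symbols that begin with Cyp, 17 of 65 were higher past 2-fold and 5 were lower past 2-fold, against 8 and 0 with normexp. Among those that begin with Slc, the solute carriers of every tissue, 80 of 335 were higher past 2-fold (23.9%) and 7 were lower (2.09%), against 53 and 1 with normexp. Those shares include the listed members.

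The rule for named genes also took the largest differences upward, in the lists or not. Kap, an androgen-regulated protein secreted by proximal tubule cells, led with 12.8 at E17.5 and 0.0775 at E15.5. This 166-fold difference was followed by a further increase to 144 at P0. Serpina6, the corticosteroid-binding globulin, was at 4.97 at E17.5 and 0.141 at E15.5, 35.2-fold higher, and its measured probes gave differences of 5.14 and 5.46. Acsm1, a medium-chain acyl-CoA synthetase, was 32.7-fold higher, at 7.12 at E17.5 and 0.218 at E15.5. Acox2, a peroxisomal oxidase of bile acid intermediates, was 21.3-fold higher. Slc22a7, an organic anion transporter, and Slco1a6, an organic anion transporter of the kidney, were 18.1-fold and 17.3-fold higher. Among genes bright on the E17.5 array alone, Acmsd, which diverts tryptophan breakdown away from NAD synthesis, stood at 0.885 and was at least 41.4-fold higher. Ldc1 and Rdh16 were at least 30.2-fold and 18.04-fold higher and brighter still at P0.

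Beyond the proximal tubule, 15 of 23 genes of the loop of Henle and distal tubule were higher past 2-fold, with none lower past 2-fold and a median of 1.11. Umod (uromodulin), the main urinary protein made by the thick ascending limb, was at 0.0545, 0.0881, 1.16, 12.97 and 51.9 at the 5 stages and 11.2-fold higher at E17.5 than at E15.5. Slc12a1, the salt transporter of the same limb, was at 1.89 at E17.5 and 0.71 at E15.5, 2.66-fold higher. Slc12a3, the thiazide-sensitive salt transporter of the distal convoluted tubule, was 7.24-fold higher, at 0.657 at E17.5 and 0.0907 at E15.5. Parvalbumin (Pvalb), a calcium-binding protein of the same tubule, was 3.85-fold higher. The patterning factors Irx1, Irx2 and Pou3f3, which act when these segments are laid down, had differences of 0.28, 0.44 and -0.03.

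In the collecting duct, genes of the intercalated cells, which handle acid and base, were higher past 2-fold in 12 of 18, with a median of 1.25 and none lower past 2-fold. Aqp6, a channel of acid-secreting vesicles, was 8.78-fold higher, at 0.721 at E17.5 and 0.0822 at E15.5. The transcription factor Hmx2 was 4.92-fold higher. The proton pump subunits Atp6v0a4 and Atp6v1b1 were 3.59-fold and 3.16-fold higher, the second at 0.628 at E17.5 and 0.199 at E15.5. Foxi1, the factor that specifies these cells, was 1.52-fold higher. Of 19 genes of the principal cells, which handle water and sodium, 2 were higher past 2-fold, with a median of 0.38, which is smaller than the 0.49 reached between replicate organoid arrays. Those were Aqp2, the water channel controlled by vasopressin, at 0.267, 0.323, 1.37, 7.44 and 11.04 at the 5 stages and 5.41-fold higher, and the sodium channel subunit Scnn1a (2.01-fold), which is within 2-fold with normexp or median scaling. Among 7 genes of urea and osmolyte handling, 2 were higher past 2-fold, the urea transporter Slc14a1 (5.07-fold) and the betaine transporter Slc6a12 (2.21-fold), both at levels of 0.129 or less at E17.5 and within 2-fold with normexp.

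**Figure D3:**
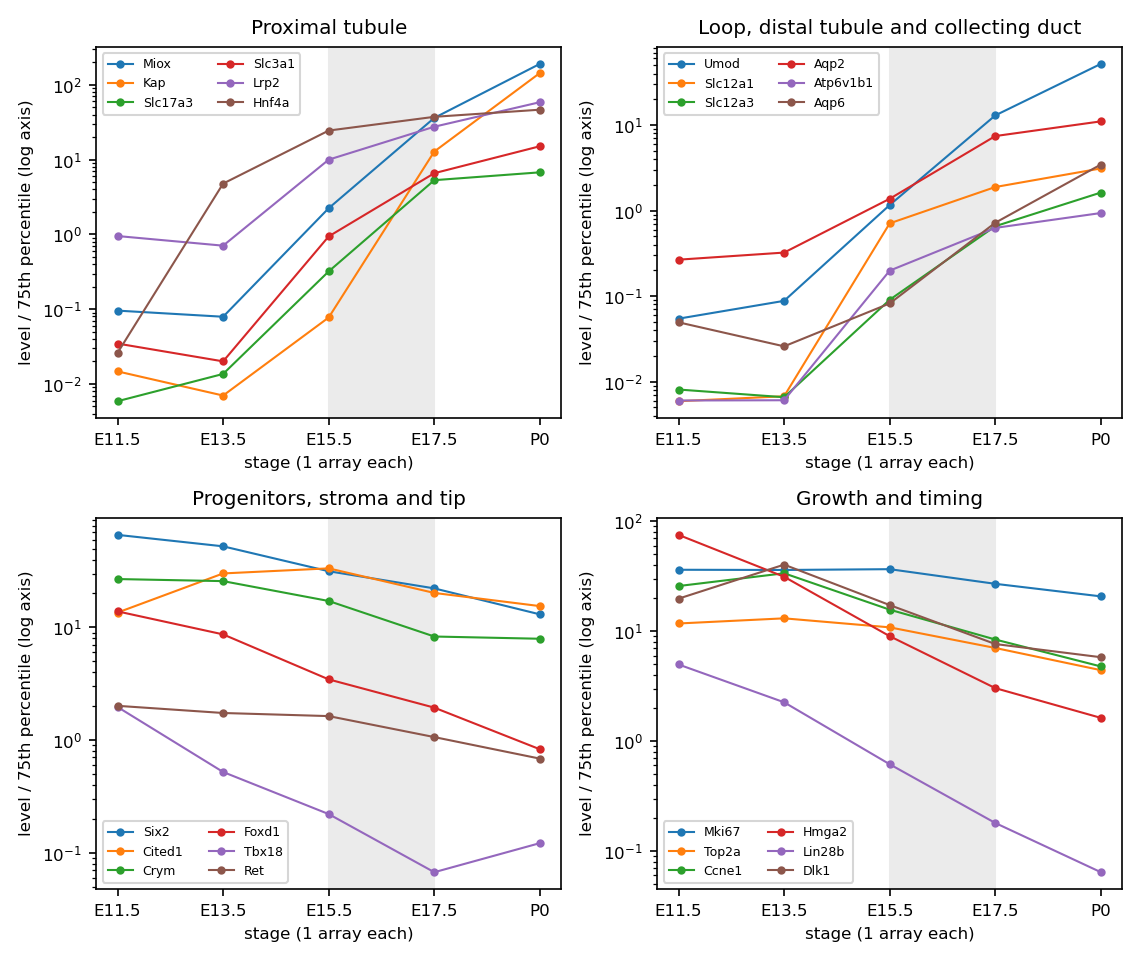
The y axis is the level (signal over the 75th percentile of its array, log axis) and the x axis the stage, 1 array each, with the step from E15.5 to E17.5 shaded. Tubule genes such as Miox (36.1 at E17.5, 2.24 at E15.5) and Umod (12.97 at E17.5, 1.16 at E15.5) climb through the shaded step, whereas Six2 (22.2 at E17.5, 31.5 at E15.5) and Lin28b (0.18 at E17.5, 0.615 at E15.5) decline; levels of different genes are not comparable.

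Genes of the glomerulus, which filters blood, were mostly within 2-fold. None of 16 podocyte genes was past 2-fold, and 11 were higher and 5 lower, with a median of 0.35. Nphs1 (nephrin), a slit diaphragm protein, stood at 0.674 at E17.5 and 0.422 at E15.5, 1.60-fold higher. The factor Wt1 and the cell cycle inhibitor Cdkn1c, which mark these cells from early on, had differences of -0.26 and -0.44. In the basement membrane list 2 of 13 genes were higher past 2-fold, and they were the mature collagen IV chains Col4a4 (2.73-fold) and Col4a3 (2.67-fold). Col4a3 was dim, at 0.149 at E17.5 and 0.0557 at E15.5. The general chains Col4a1 and Col4a2 each had a difference of 0.22, and the embryonic laminin chain Lama1 one of -0.11.

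Progenitor and early nephron genes were lower as groups by small amounts. Of 12 nephron progenitor genes measured, 11 were lower and 1 of them past 2-fold, with a median of -0.49, against a median of at most 0.24 in size between replicate organoid arrays. Six2, which keeps nephron progenitors self-renewing, was at 66.2, 52.4, 31.5, 22.2 and 13.04 at the 5 stages, so that E17.5 had 0.704 times the E15.5 level. Cited1, of the youngest progenitors, had levels of 20.2 at E17.5 and 33.4 at E15.5, a difference of -0.72. Crym, a thyroid hormone binding protein of the cap mesenchyme, was 2.07-fold lower (within 2-fold after quantile normalization), at 8.29 at E17.5 and 17.1 at E15.5. Among 14 early nephron genes 12 were lower, none past 2-fold, with a median of -0.35. The Notch target Hes5 had a difference of -0.75 and Lhx1, needed for nephron patterning, one of -0.73 by the chosen probe and -0.31 by the other. Ureteric tip genes were lower in 9 of 10, none past 2-fold, with a median of -0.33. Ret, the receptor for the branching signal Gdnf, was at 1.06 at E17.5 and 1.63 at E15.5, 1.54-fold lower.

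Cortical stromal progenitor genes were lower in 10 of 11, with 2 past 2-fold and a median of -0.34. Foxd1, which defines these cells, was at 13.9, 8.66, 3.45, 1.94 and 0.827 from E11.5 to P0 and 1.78-fold lower at E17.5 than at E15.5. Tbx18, a factor of ureteric and stromal mesenchyme, was 3.28-fold lower, at 0.067 at E17.5 and 0.22 at E15.5. Crabp1, a retinoic acid binding protein, was 2.50-fold lower, at 0.874 at E17.5 and 2.18 at E15.5. Genes of the differentiated interstitium and matrix had a median of 0.17 over 15 genes, none past 2-fold.

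Some genes of contractile cells and of renin cells were higher. Of 10 smooth muscle and mural genes 3 were higher past 2-fold, with a median of 0.49: smooth muscle myosin Myh11 (2.95-fold), calponin Cnn1 (2.44-fold) and smooth muscle actin Acta2 (2.36-fold). Acta2 was at 44.0 at E17.5 and 18.6 at E15.5. In the renin-angiotensin system 3 of 8 were higher past 2-fold. Renin (Ren1) itself was at 0.129, 0.14, 1.08, 5.86 and 6.02 at the 5 stages, 5.44-fold higher at E17.5 than at E15.5 and nearly level after that. The converting enzyme Ace was 3.42-fold higher and the receptor Agtr1a 2.01-fold, the second within 2-fold with normexp or median scaling. The fetal receptor Agtr2 had a difference of -0.44. None of 19 endothelial genes was past 2-fold, with a median of -0.02 (0.03 after quantile normalization), and Pecam1 stood at 0.771 at E17.5 and 0.793 at E15.5.

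Urothelial genes, which line the renal pelvis and ureter, were higher past 2-fold in 7 of 9 (4 with normexp), with a median of 1.27. Upk2, a plaque protein, was 18.1-fold higher, at 1.74 at E17.5 and 0.0959 at E15.5, and Upk1a was 5.25-fold higher, at 5.32 at E17.5 and 1.01 at E15.5. The summed level of the list was 22.01 at E17.5 and 10.3 at E15.5. The ureter was removed from these samples according to the labels, and how much pelvis each held is not given. This list also had a median of 3.15 in size between replicate organoid arrays of one slide, larger than its median here, and whether dissection played a part was not tested.

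Genes of DNA replication and mitosis were lower throughout. All 25 measured were lower at E17.5, none past 2-fold, with a median of -0.57, where 57.9% of all genes were lower. Between replicate organoid arrays the median of this list was at most 0.15 in size. All 25 were also lower at P0 than at E13.5, where 59.1% of all genes were lower. Past 2-fold, 22 of them were lower at P0, against 13.6% of all genes. Mki67, a protein of dividing cells, was at 36.2, 36.0, 36.6, 26.9 and 20.7 at the 5 stages, and thus stayed level up to E15.5 and was 1.36-fold lower at E17.5. Top2a, which untangles DNA before division, stood at 7.03 at E17.5 and 10.8 at E15.5, 1.54-fold lower. Cyclin E1 (Ccne1), which starts DNA replication, had the largest difference of the list, at 8.39 at E17.5 and 15.7 at E15.5 (-0.90). The replicative helicase subunits Mcm3 and Mcm5 had differences of -0.77 and -0.70.

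Promoters of Mki67 and Top2a are shown for the elements that many cell cycle genes share, the CCAAT box bound by NF-Y and the TTTGAA form of the cell cycle homology region. Top2a was chosen after its values were seen. Capitals mark CCAAT or TTTGAA on either strand in the 250 bases before the start of the gene (RefSeq, GRCm38.p6), for Mki67 at chr7:135716380-135716629 on the minus strand and for Top2a at chr11:99024190-99024439 on the minus strand.
Mki67: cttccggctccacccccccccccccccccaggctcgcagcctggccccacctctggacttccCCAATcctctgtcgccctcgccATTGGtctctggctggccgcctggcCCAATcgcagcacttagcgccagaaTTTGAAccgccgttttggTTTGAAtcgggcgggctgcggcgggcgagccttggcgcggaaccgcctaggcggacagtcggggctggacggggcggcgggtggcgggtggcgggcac
Top2a: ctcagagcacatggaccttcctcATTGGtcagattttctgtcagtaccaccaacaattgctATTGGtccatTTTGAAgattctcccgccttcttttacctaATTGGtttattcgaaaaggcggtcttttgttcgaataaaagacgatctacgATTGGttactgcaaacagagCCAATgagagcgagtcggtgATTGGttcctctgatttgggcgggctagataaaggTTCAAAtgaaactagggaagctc
CCAAT was present in 81.8% of 22 cell cycle promoters, against 34.5% of all promoters, and occurred 2 or more times in 54.5% of them, against 10.5% of all. TTTGAA was present in 31.8%, against 16.3% of all. Among the proximal tubule promoters CCAAT was found in 27.3%. As above, the letters alone do not show that a factor is bound.

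Oncofetal and imprinted growth genes, some of which are high in embryos and silenced with age, were lower in 16 of 17, with 3 past 2-fold and a median of -0.52. Lin28b, an RNA-binding protein that blocks let-7 microRNAs, was at 4.97, 2.25, 0.615, 0.18 and 0.0641 from E11.5 to P0, 3.42-fold lower at E17.5 than at E15.5. Hmga2, a chromatin protein repressed by let-7, was at 75.1, 31.2, 8.99, 3.03 and 1.62, 2.97-fold lower. Both decreased at each of the 4 steps. The imprinted gene Dlk1 was 2.26-fold lower by its chosen probe and had a difference of -0.58 by the other. Igf2 had a difference of -0.52 and H19 one of -0.27.

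**Figure D4:**
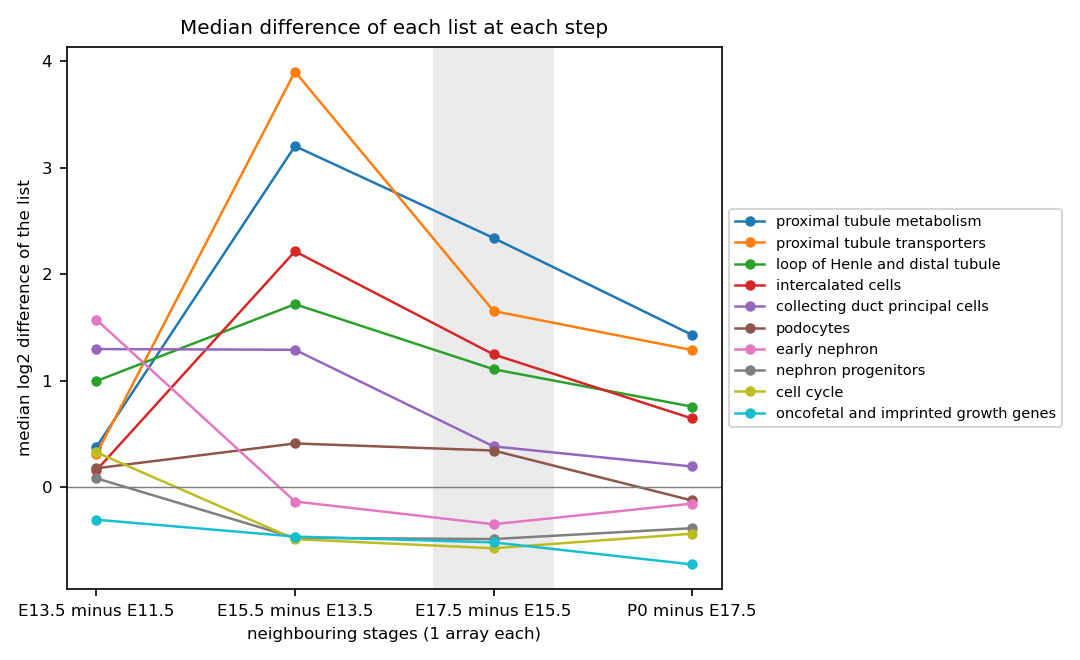
The y axis is the median log2 difference of each list and the x axis the 4 steps between neighbouring stages, later minus earlier, 1 array each; the step from E15.5 to E17.5 is shaded. At the shaded step the median was 1.66 for proximal tubule transporters and -0.57 for cell cycle genes; neighbouring steps share an array, and at E11.5 and E13.5 many tubule genes were not well above background.

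The other steps are given beside this one. Each step shares an array with the next, so no comparison is made between them. At E13.5 14 of the 27 transporters and 13 metabolic genes were well above background, and at E11.5 12 and 10, so the medians of the first 2 steps rest in part on signals that are only bounds. The median of the proximal tubule transporters was 0.31, 3.90, 1.66 and 1.29 at the 4 steps from E11.5 to P0, and that of metabolism 0.38, 3.20, 2.34 and 1.43. For drug-metabolising enzymes it was 0.15, 1.03, 1.11 and 0.87. The early nephron list ran otherwise, with 1.57, -0.13, -0.35 and -0.15. Over all genes 6.16% were higher past 2-fold between E11.5 and E13.5, 9.07% between E13.5 and E15.5, 5.54% between E15.5 and E17.5, and 4.4% between E17.5 and P0.

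Of 19 fatty acid oxidation genes 3 were higher past 2-fold, with a median of 0.28: the omega-hydroxylase Cyp4a10 (3.18-fold), the peroxisomal enzyme Ehhadh (2.42-fold) and the medium-chain dehydrogenase Acadm (2.35-fold), which was at 34.9 at E17.5 and 14.9 at E15.5. Oxidative phosphorylation genes had a median of 0.15, and the muscle-type subunit Cox7a1 was the only one of 18 past 2-fold (2.53-fold). In the hypoxia and glycolysis list Ndrg1, induced by low oxygen and by differentiation, was the only one of 14 past 2-fold, at 30.7 at E17.5 and 8.09 at E15.5. Sterol synthesis (15 genes), growth factor ligands (19 genes), the circadian clock (12 genes) and immediate early and heat shock genes (12 genes) had none past 2-fold and medians between -0.05 and 0.03, each of which crosses 0 under at least 1 other scaling.

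Glucocorticoid-responsive genes were higher past 2-fold in 4 of 12 and lower in 1, with a median of 0.48, and with normexp 1 was higher past 2-fold and 1 lower. The cell cycle inhibitor Cdkn1a was 2.32-fold higher by its chosen probe and had a difference of 0.18 by the other, and the transcription factor Klf9 was 2.04-fold higher. The metallothionein Mt2 was lower (within 2-fold after quantile normalization), at 35.1 at E17.5 and 75.5 at E15.5. In the tubular injury list Spp1 (osteopontin), which the loop of Henle also makes, was 10.67-fold higher and Lcn2 2.31-fold, while 4 of 8 members were lower and the median was -0.15 (0.0048 with normexp). Interferon-responsive genes had a median of 0.56, with Ifit3 5.63-fold higher at levels of 0.288 at E17.5 and 0.0511 at E15.5 and Irf7 at least 2.38-fold higher, but with normexp none of the 8 measured was past 2-fold.

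The kidney genes Pax2, Six2, Wt1, Lhx1, Ret, Foxd1, Nphs1, Lrp2, Umod and Aqp2 were all well above background on both arrays. Signs of other cells differed between the arrays for a few groups. Granulocyte and mast cell genes were higher past 2-fold in 5 of 9 (2 with normexp), with a summed level of 6.33 at E17.5 and 3.1 at E15.5, led by S100a9 (7.66-fold) and S100a8 (5.48-fold), whereas the granule proteases Mpo and Elane had differences of 0.08 and 0.21. Macrophage genes had none past 2-fold among 17, and Csf1r stood at 8.59 at E17.5 and 7.36 at E15.5. Neuronal and glial genes were lower in 11 of 14, with a summed level of 11.54 at E17.5 and 13.03 at E15.5. With normexp 9 of the 14 were lower and none was past 2-fold. Adrenal genes were lower in 7 of 7 with sums of 7.59 at E17.5 and 8.40 at E15.5, and skeletal muscle genes in 7 of 9 with sums of 2.42 at E17.5 and 2.35 at E15.5. The adrenal median was -0.41, or -0.11 with normexp. Of all genes measured 57.9% were lower, and nothing is read from the counts of these 3 lists. Summed levels cover all listed genes on the array, measured or not, which is 10 each for the granulocyte, adrenal and skeletal muscle lists. None of the 6 lymphocyte, 5 gonad and 5 fat genes measured was past 2-fold. In the liver list Ttr was 5.83-fold and Afp 2.81-fold higher, Serpina1a was 3.08-fold lower, and albumin (Alb) was not well above background on any of the kidney arrays. The part these cells have in the results was not tested.

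Among red cell genes, embryonic globins were lower at E17.5, while adult-type globins had no common course. Hbb-y, the embryonic beta-like globin, was at 469, 441, 18.7, 0.452 and 0.0346 at the 5 stages and 41.4-fold lower at E17.5 than at E15.5, the largest difference downward among genes above background on both arrays. Hba-x, the embryonic alpha-like globin, was 17.03-fold lower, at 0.086 at E17.5 and 1.46 at E15.5, and Hbb-bh1 was 2.82-fold lower. The adult-type globin Hbb-b2 was 2.75-fold higher at E17.5 than at E15.5. Its levels of 16.5, 117, 71.6, 197 and 13.7 at the 5 stages did not increase steadily. Hba-a1 was at 366 at E17.5 and 264 at E15.5, a difference of 0.47. Hba-a2 differed by -0.02. The near-identical sequences of the adult globin copies can share signal, so their single values are uncertain. The summed level of the 16 red cell genes on the array, 15 of them measured, was 1499.7 at E17.5 and 1245 at E15.5.

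Sex-linked genes differed between the arrays. Xist, transcribed from the inactive X chromosome, was at 1.004, 0.151, 0.616, 0.00536 and 0.0165 at the 5 stages and not well above background at E17.5 and P0, so that E17.5 was at least 25.2-fold lower than E15.5. The Y-linked genes Eif2s3y, Uty and Ddx3y were 7.49-fold, 4.88-fold and 4.14-fold higher at E17.5, with Ddx3y at 2.31 at E17.5 and 0.558 at E15.5. RNA of the X-inactivation transcript was therefore measured at E15.5 and not at E17.5, and Y-linked RNA was measured on both arrays. Kap responds to androgen, and the part that this difference has in its 166-fold change, or in that of any other gene, was not tested. At P0, where Xist was also not well above background, and at E13.5, where it was measured, Kap stood at 144 and 0.007, the second not well above background.

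**Figure D5:**
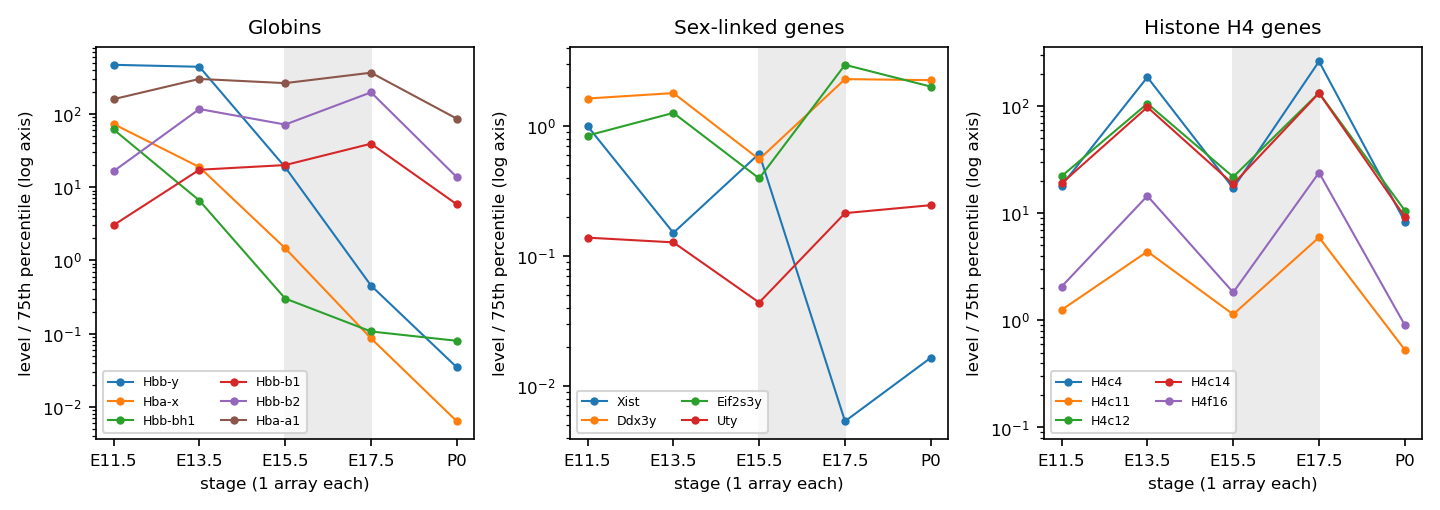
Levels (signal over the 75th percentile of its array, log axis) are drawn by stage, 1 array each, for globins, sex-linked genes and 5 histone H4 genes, with the step from E15.5 to E17.5 shaded. Hbb-y falls through the series to 0.0346 at P0, Xist is at 0.00536 at E17.5, and H4c4 is high at E13.5 (186) and E17.5 (261) but not at the stages between and after.

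The other large differences downward were mostly in dim probes or in genes with uneven courses. Prim2, a DNA primase subunit, was 16.7-fold lower by its chosen probe, at 0.147 at E17.5 and 2.44 at E15.5, but its other probe gave a difference of -0.41. Unc93a2 and Gm3556 were 8.15-fold and 7.12-fold lower, and both were higher at E15.5 than at any other stage. Nlrp3, an inflammasome sensor, was 6.50-fold lower at levels of 0.0341 at E17.5 and 0.221 at E15.5, and its other probe differed by -0.27. Wnt10a was 4.48-fold lower, at 0.198 at E17.5 and 0.886 at E15.5, and then at 8.66 at P0. Actn3, a muscle actinin, was 4.12-fold lower, and Sh2d4a 4.29-fold. Of the genes bright at E15.5 alone, Zfp979 was at least 55.2-fold lower at E17.5 and its levels of 2.41, 0.0299, 1.35, 0.0163 and 2.34 alternated over the 5 stages, while its other probe gave a difference of -2.45. Dsg4, a desmosomal cadherin, was at least 30.0-fold lower and Sh3rf2 at least 9.54-fold, and both were well above background at E15.5 and at no other stage.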

How the data were processed

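Total RNA was labelled with Cy3 and hybridised to Agilent one-colour arrays, 1 per sample, per the labels' protocols. The deposited intensity files hold, per the file headers, the background-subtracted processed signal of Feature Extraction 11.5.1.1 (protocol GE1_1105_Oct12), while the submitters' processing notes name 10.7.3.1. The authors' deposited log2 values differed from the log2 of these signals by a single constant per array and was used as an alternative. The kidney arrays shared 1 slide. The 75th percentile of signal was 259 on the E17.5 array and 261 on the E15.5 array, where 61.9% and 63.2% of 55681 probes were well above background, no spot was saturated, and 146 and 127 outlier spots were left out. The number of arrays limits the precision.

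From there, log2 of the processed signal minus each array's 75th percentile was taken, repeat spots were averaged, and a gene with several probes (7223 symbols) was read from the one that was brightest on average across all 12 arrays. Gene names came from a RefSeq list of 49997 genes, through the accession for 28361 probes, the symbol for 3186 and a synonym for 270. A further 1984 probes carry their deposited name and 21880 are unnamed. A gene dim on 1 array was given as at least a fold, against the higher of its own signal there and the lowest signal well above background on that array. Genes were called past 2-fold, with no test. The calculation recovered known changes in simulated data. These were put only into probes well above background on all 12 arrays, with less noise than between replicate organoid arrays. This checks the calculation and says nothing of the calls of dim genes. The members, 43 gene lists (567 of 598 genes measured) and 5 lists made after values were seen were chosen with earlier results of these data known. The naming rule took the 15 largest differences each way on both arrays, the 5 brightest each way on 1 array, up to 4 members past 2-fold per list and the defining genes. Some genes that this rule takes are not reported here. Slc34a1, Slc5a2, Slc22a6, Fbp1, G6pc, Pck1, Cyp27b1, Top2a and other listed genes within 2-fold were added as examples after their values were seen. Tools were Python 3.11.15, pandas 2.3.3, numpy 2.4.6, matplotlib 3.10.9, R 4.3.3, limma 3.58.1 and data.table (version 1.17.8). The alternatives were normexp correction with an offset of 50, quantile normalization, median scaling, the authors' table, outlier spots kept, the mean of probes, other background filters and other folds.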

Additional observations from a re-analysis of the deposited data

How the results depend on the processing

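The counts of genes past 2-fold depended on how dim signals were treated. Against 1024 higher and 432 lower at E17.5, normexp correction left 387 higher and 47 lower. Counting dim genes by their bound left 279 lower, requiring both arrays above background left 180 lower, and no background filter gave 815 lower. A 1.5-fold threshold gave 2049 higher and 1381 lower, and a 4-fold threshold 325 and 136. A filter chosen after seeing the data, at or above the 75th percentile on at least 1 array, left 357 and 50. Quantile normalization (1067 and 477), median scaling (985 and 469) and the authors' table (1025 and 431) stayed near the counts given. For P0 over E13.5, 2979 were higher and 2511 lower. Normexp gave 1484 and 1377, the 75th percentile filter 1317 and 1582, and a 4-fold threshold 1445 and 343. Median scaling gave 3952 lower, so that 38.7% of the calls were higher in place of 54.3%, and a 1.5-fold threshold 5519 lower. Median scaling also set the median P0 minus E13.5 difference of all genes at -0.42, against -0.19. The cause of these shifts was not tested. The share of higher genes that were also higher at P0 ranged over the scalings tried from 90.3% to 96.9%. That share includes genes that entered only through P0. For lower genes, the share lower at P0 ranged from 62.9% to 73.3%, where 56.2% to 67.4% of all genes were. Of the values of single named genes under the alternatives, 529 stayed within the spread and 91 moved beyond it, and of the medians of lists 323 stayed and 13 moved. None of these past 2-fold changed sign. Proximal tubule transporters past 2-fold were 21 with normexp and 25 under the other scalings. No paired analysis was possible because each stage has 1 array and the labels give no replicate numbers that stages share. Signal over background limits the lower genes most, since 252 of the 432 were not well above it at E17.5.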

Other observations

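Other gene families outside the lists differed between the stages, and each was picked out after its values were seen. Acsm genes, medium-chain acyl-CoA synthetases, were past 2-fold higher at E17.5 in 4 of 4, with a median difference of 2.74, or 1.54 with normexp correction. Acsm2 was at 7.89 at E17.5 and 1.80 at E15.5, and Acsm5 was 10.1-fold higher at a level of 0.283 at E17.5 and 0.0279 at E15.5. The Nat8 family of N-acetyltransferases was higher past 2-fold in 4 of 6, with a median of 2.28, or 0.79 with normexp correction. Nat8 itself, which acetylates cysteine conjugates in the kidney, stood at 7.42 at E17.5 and 0.736 at E15.5, 10.1-fold higher, and at 26.2 at P0. Stefin A genes, protease inhibitors of skin and blood cells, were higher past 2-fold in 7 of 8, with a median of 2.68 (5 of 8 and 1.03 with normexp correction) and a summed level of 2.73 at E17.5 and 0.435 at E15.5. The same family had a median of up to 5.54 in size between replicate organoid arrays of one slide.

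A set of 5 histone H4 genes was picked out for being bright at E13.5 and E17.5, so its alternating course is the reason for the choice and not a result. H4c4 was at 18.1, 186, 17.1, 261 and 8.34 from E11.5 to P0, 15.2-fold higher at E17.5 than at E15.5. H4f16 was 13.1-fold higher, at 23.9 at E17.5 and 1.82 at E15.5. The 5 genes, with H4c11, H4c12 and H4c14, had a median difference of 2.82. The 26 other replication-dependent histones measured, which are those not picked, had a median of -0.28, and 21 of them were lower. The 2 probes of H4c14 gave 0.82 and 2.82. H4 genes are near-identical in their coding sequence, so their signals may be shared and each value is uncertain.

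Genes of the cytosolic ribosome were slightly lower at E17.5 under most scalings. All 51 symbols that begin with Rpl were lower, with a median of -0.18, and 46 of 48 that begin with Rps, with a median of -0.17. After quantile normalization the medians were -0.04 and -0.06, with 14 higher in each family. Between replicate organoid arrays the Rpl median reached 0.20 in size.

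Among genes bright on the E17.5 array alone, D730005E14Rik was at least 16.9-fold and the olfactory receptor Olfr558 at least 14.6-fold higher than at E15.5, and neither was well above background at any other stage. Of 235 olfactory receptor genes measured, 33 were higher past 2-fold and 16 lower, against 2 higher and none lower of 234 with normexp correction.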
